A study of Mus musculus with 16 samples.

Results

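The cell cycle and mitosis genes described here are a list of 50 mouse genes that cells use to copy their DNA and divide, read by their symbols in mouse osteoblasts after siRNA transfection. They were listed by name, with earlier results of these data known. A gene counted as detected when its detection p, 1 minus the deposited detection score, was under 0.05 on 4 or more of the 16 arrays. By that rule 9560 genes were tested in all, of which 8832 have a symbol and the rest are unnamed probes, counted here as genes. Among them 38 of the 50 listed genes were detected and tested. They fall into 20 of 30 listed mitosis genes, 9 of 9 replication genes (the Mcm, Pcna and Rrm genes), 3 of 4 other S phase genes and 6 of 7 genes of G1 and its passage into S phase. Of the 12 others, Gmnn, Ccna2, Ccnb2, Bub1, Cenpe, Kif20a and Cks2 had a probe that was detected on 0 of 16 arrays, and Mki67, Ccnb1, Aurkb, Racgap1 and Cdk4 are not analysed here because the annotation used pairs no probe with them. Of the 38, 37 were detected on all 16 arrays. Ube2c was detected on 13, which were 2 arrays with BICC1_1, 3 with BICC1_2, 4 labelled BICC1_3 and 4 with SC.

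The cells were primary osteoblasts, the bone-forming cells, released from the calvaria (skull vault) of C57BL6/J pups aged 3 to 9 days, of both sexes mixed. They were transfected with the Bicc1 siRNA BICC1_1, BICC1_2 or BICC1_3, or with a scrambled control siRNA (SC), with 4 arrays for each, and total RNA was taken 48 hours later. All groups carry a transfected siRNA, so none shows untouched cells. The labels do not say whether the replicates were separate cultures or pools of animals, so the p-values reflect how much these arrays vary, and that variation may be technical. Because the RNA is from whole cultures, fewer dividing cells and less RNA per dividing cell cannot be told apart.

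Bicc1, which encodes an RNA-binding protein, was measured at a log2 intensity of 9.66 ± 0.22 with BICC1_1, 8.97 ± 0.25 with BICC1_2 and 10.45 ± 0.17 on the arrays labelled BICC1_3, against 10.55 ± 0.12 with SC (SD, n = 4 each). It fell by 0.90 with BICC1_1 (limma, adjusted p = 0.0345) and it fell by 1.59 with BICC1_2 (adjusted p = 7.98e-06), and differed by -0.10 on the arrays labelled BICC1_3 (adjusted p = 0.776). The BICC1_1 call was lost under 12 of 26 other settings (adjusted p up to 0.224), with the Bicc1 difference between -0.97 and -0.78 in all of them, and that of BICC1_2 was kept under 26 of 26. The third group, labelled with a Bicc1 siRNA, thus showed no called fall in Bicc1, and the cause was not tested. Every direction given for this group is one in arrays labelled BICC1_3. Among the osteoblast markers, Col1a1, Col1a2, Sp7 and Sparc were detected on 16 of 16 arrays and Alpl on 15, while Bglap, Dmp1 and Postn were detected on 0. Median probe intensity was 84.8 to 111 per array. A further 3 arrays stood apart in their ribosomal protein and NADH dehydrogenase genes, and the differences without them are given after those with all arrays. The median of 51 ribosomal protein genes, as a log2 deviation from each gene's mean over the 16 arrays, was -0.74 on replicate 1 of the arrays labelled BICC1_3, -0.36 on BICC1_1 replicate 3 and -0.02 on BICC1_2 replicate 3, and 0.04 to 0.11 on the other 13.

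A cell commits to division in G1, when D and E cyclins switch on their kinases and E2F factors release the genes of DNA synthesis. The Mcm proteins form the ring-shaped helicase that opens DNA, Pcna is the sliding clamp of the polymerases, and ribonucleotide reductase (Rrm1, Rrm2) makes the building blocks. In G2 and mitosis the kinase Cdk1 and the Aurora and Polo kinases drive spindle assembly, a checkpoint holds the chromosomes until all are attached, and the anaphase-promoting complex then marks cyclins for destruction. Transcripts of these late genes are made in dividing cells through promoters that hold CCAAT boxes and a cell cycle homology region (CHR), while many replication genes hold E2F sites. Cultured osteoblast precursors divide before they mature, so the level of these transcripts is commonly read as a mark of proliferation.

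These promoter words were looked for in the 250 bases before the transcription start, on both strands, in RefSeq windows of build GRCm38.p6. A window is set on the start of a single transcript, which need not be the outermost start of its gene. Of the 31 windows used, 17 lay outside the gene's annotated span, 10 lay partly inside it, and those of Aurka, Cdca3, Cdc6 and E2f1 lay wholly inside it, before a start further into the gene. The CHR was read as TTTGAA or TTCGAA, the CCAAT box as CCAAT, and E2F sites as TTTCCCGC, TTTCGCGC, TTTGCCGC or TTTGGCGC. Overlapping matches of a word were each counted. A window was given for 31 of the 38 detected genes. Mcm4, Tpx2, Ccnd1, Ccnd2, Ccne2, Cdc25c and Stmn1 are named only. A CCAAT box stood in 15 of 17 mitosis windows (88.2%) and 8 of 8 replication windows (100.0%), against 34.5% of 27025 genes with a window. A CHR stood in 8 of 17 mitosis windows (47.1%) and 2 of 8 replication windows (25%), against 17.4% of all windows. An E2F word stood in 1 of 17 mitosis windows (5.88%) and 3 of 8 replication windows (37.5%), against 1.91% of all windows. These matches describe letters and were not tested as sites. The windows of 4 genes follow, 5′ to 3′ with matched words in capitals. By the brightest probe of each gene, Aurka had the smallest p of the list over the siRNAs and Ube2c the lowest difference. Cdk1 holds all 3 kinds of word, and Mcm6 holds 3 E2F words. Aurka lies at chr2:172370571-172370820 (minus strand), Ube2c at chr2:164769679-164769928 (plus strand), Cdk1 at chr10:69352913-69353162 (minus strand) and Mcm6 at chr1:128359706-128359955 (minus strand).
Aurka: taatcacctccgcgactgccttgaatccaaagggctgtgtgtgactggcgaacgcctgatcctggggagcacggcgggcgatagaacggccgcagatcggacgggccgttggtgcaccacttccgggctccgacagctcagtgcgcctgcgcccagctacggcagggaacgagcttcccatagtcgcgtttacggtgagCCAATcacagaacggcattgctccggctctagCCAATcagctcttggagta
Ube2c: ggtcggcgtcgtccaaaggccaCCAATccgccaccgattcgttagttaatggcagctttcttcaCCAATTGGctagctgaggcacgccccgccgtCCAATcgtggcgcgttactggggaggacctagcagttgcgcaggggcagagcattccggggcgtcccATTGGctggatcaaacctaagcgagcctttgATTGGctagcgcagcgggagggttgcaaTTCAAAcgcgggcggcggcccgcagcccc
Cdk1: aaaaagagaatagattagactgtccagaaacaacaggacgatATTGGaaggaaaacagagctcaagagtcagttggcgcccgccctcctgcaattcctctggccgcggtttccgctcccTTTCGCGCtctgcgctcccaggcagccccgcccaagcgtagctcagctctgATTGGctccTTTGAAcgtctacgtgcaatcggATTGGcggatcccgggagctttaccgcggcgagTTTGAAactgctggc
Mcm6: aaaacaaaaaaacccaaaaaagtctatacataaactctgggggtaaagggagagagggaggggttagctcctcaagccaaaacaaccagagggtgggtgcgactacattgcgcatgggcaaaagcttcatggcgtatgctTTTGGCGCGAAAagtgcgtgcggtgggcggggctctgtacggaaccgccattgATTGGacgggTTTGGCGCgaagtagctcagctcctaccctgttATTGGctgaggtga
The Aurka window holds 2 CCAAT boxes and 0 CHR words. That of Ube2c holds 6 CCAAT boxes, of which a pair overlaps, and 1 CHR. The Cdk1 window holds 3 CCAAT boxes, 2 CHR words and 1 E2F word, and the Mcm6 window holds 2 CCAAT boxes and 3 E2F words, of which a pair overlaps.

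The comparisons asked whether cell cycle transcripts differ after each Bicc1 siRNA. In none of them did a cell cycle gene pass the test. At an adjusted p under 0.05 (limma's moderated test, Benjamini-Hochberg over all 9560 genes), 0 of 38 were called with BICC1_1, with BICC1_2, on the arrays labelled BICC1_3 and for the mean of the 3 siRNAs, each against SC. The share of all genes called was itself 0.0209%, 0.0523%, 0.0105% and 0.0105%. At an unadjusted p under 0.05, the BICC1_1 comparison held 0 higher and 1 lower cell cycle gene (Ube2c), where 6.16% of all genes passed, 3.25% higher and 2.91% lower. With BICC1_2 it was 0 higher and 1 lower (Aurka), where 5.24% of all genes passed, 3.12% higher and 2.12% lower. On the arrays labelled BICC1_3 it was 1 higher (Ccne2) and 3 lower (Tyms, Cdca3 and Bub1b), where 9.24% of all genes passed, 4.98% higher and 4.26% lower. For the mean of the siRNAs it was 0 higher and 1 lower (Aurka), where 6.69% of all genes passed, 3.83% higher and 2.87% lower. The 3 comparisons share the SC arrays, so the same gene lying low in several of them is not repeated evidence.

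The differences were small and bounded. The 95% intervals reached a median of 0.22 log2 to either side of a gene's difference for each siRNA, and 0.18 for the mean of the siRNAs. Over all 38 genes the lowest bound was -0.67 with BICC1_1, -0.66 with BICC1_2 and -0.59 on the arrays labelled BICC1_3, and the highest was 0.69, 0.52 and 0.90, so no interval reached a log2 difference of 1. By the brightest probe of each gene, the differences ran between -0.35 and 0.24 with BICC1_1 and between -0.25 and 0.11 with BICC1_2. On the arrays labelled BICC1_3 they ran between -0.26 and 0.46. Some other kept probes lay past these bounds, among them a Birc5 probe at -0.40 on the arrays labelled BICC1_3. A Tyms probe lay at 0.16 with BICC1_2.

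**Figure D1:**
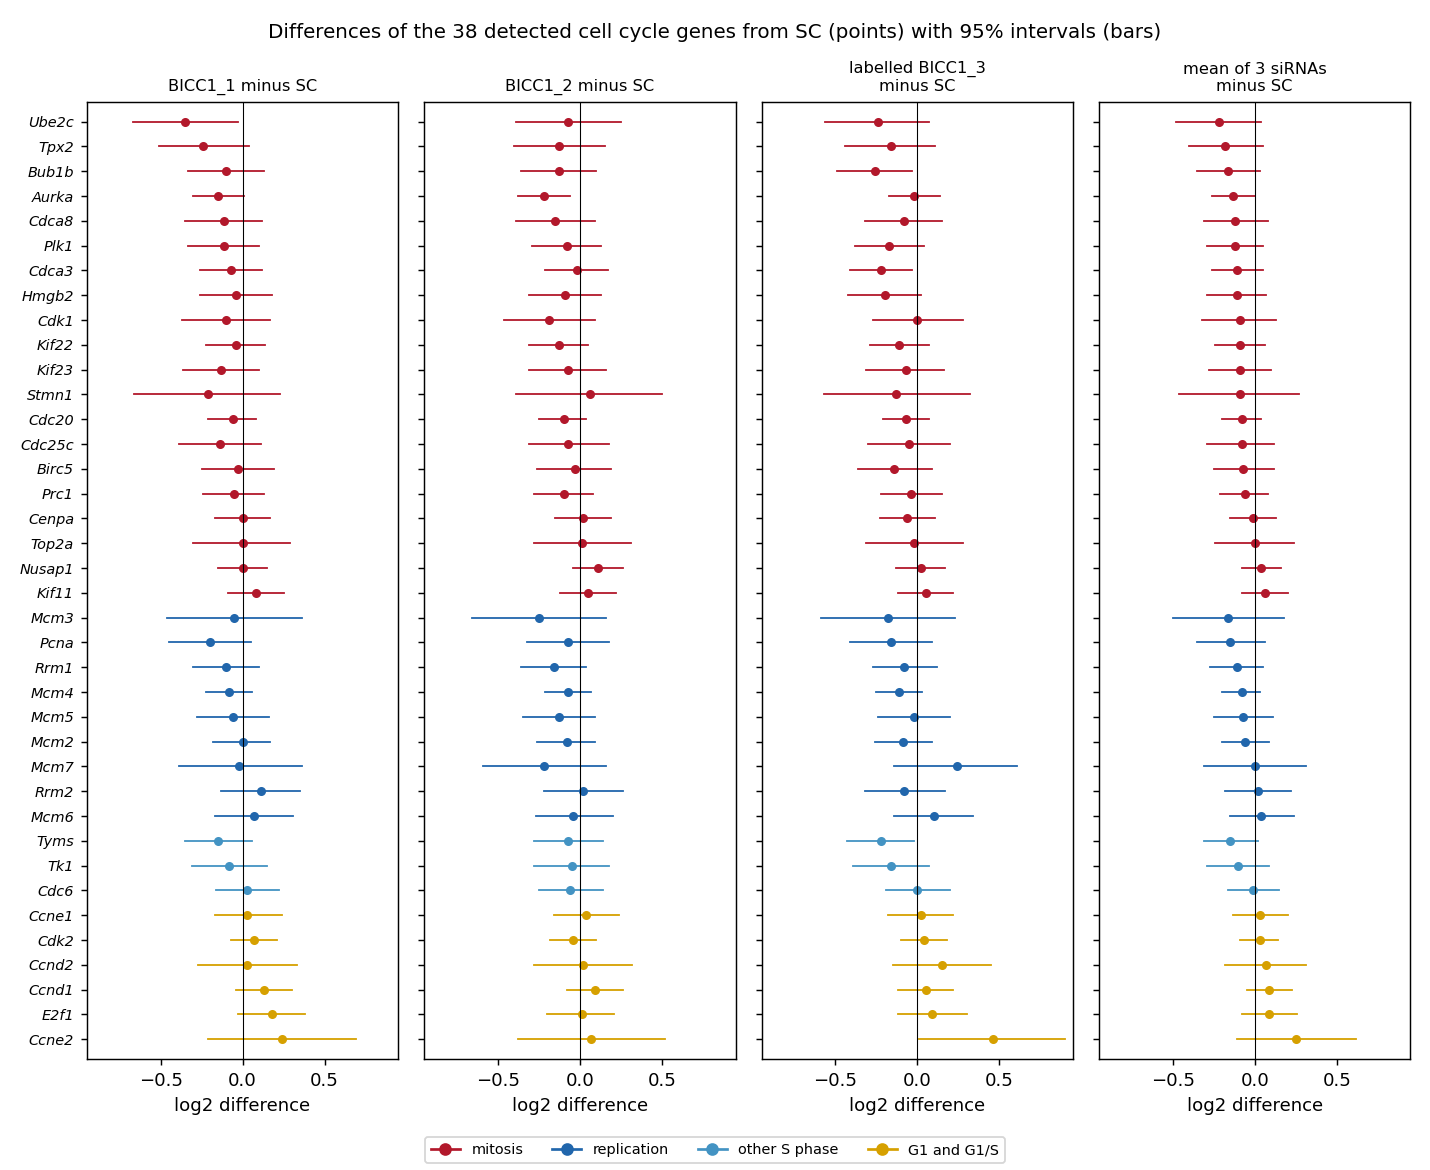
Log2 difference from SC (horizontal axis) of each of the 38 detected cell cycle genes (rows, coloured by role), with 95% limma intervals as bars. Panels show BICC1_1, BICC1_2, the arrays labelled BICC1_3 and the mean of the 3 siRNAs; mitosis genes lie mostly left of 0 (19, 15, 17 and 18 of 20), G1 genes mostly right of it, and no gene passed the adjusted threshold.

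As a group the genes lay slightly low. In the BICC1_1 comparison 28 of 38 lay below 0 (median -0.05), in that of BICC1_2 27 (median -0.07), on the arrays labelled BICC1_3 26 (median -0.07) and for the mean of the siRNAs 27 (median -0.08). Of all genes, 49.4%, 48.6%, 52% and 50.6% lay below 0. When each array was scaled to a common median in place of quantile normalization, the counts were 21, 22, 27 and 25 of 38 (medians -0.01, -0.01, -0.09 and -0.05), and 35.1%, 30.9%, 51.8% and 39.2% of all genes lay below 0. These counts describe the list and carry no test.

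The roles differed in sign. Mitosis genes lay below 0 in 19, 15 and 17 of 20 cases with BICC1_1, BICC1_2 and on the arrays labelled BICC1_3, with a median of -0.08 in each. Median scaling gave 13, 13 and 17 of 20. Replication genes lay below 0 in 7, 8 and 7 of 9 cases, with medians of -0.05, -0.08 and -0.08. Median scaling gave 5, 7 and 7 of 9. Of the 6 G1 genes 6, 5 and 6 lay above 0 (medians 0.10, 0.03 and 0.07). That G1 count was 5, 6 and 5 with median scaling and 4, 3 and 6 without the 3 arrays that stood apart.

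**Figure D2:**
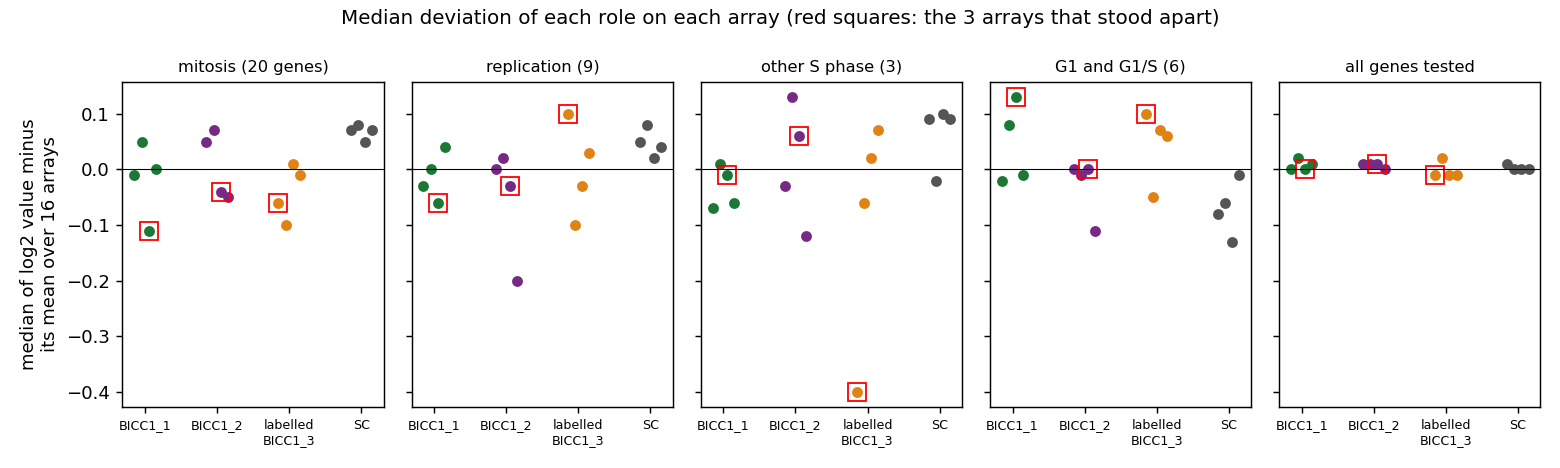
Each point is an array: the vertical axis gives the median, over the genes of a role, of the log2 value minus that gene's mean over 16 arrays, for BICC1_1, BICC1_2, the arrays labelled BICC1_3 and SC. Mitosis medians run between -0.11 and 0.07 on siRNA arrays and between 0.05 and 0.08 on SC arrays, and red squares mark the 3 arrays that stood apart.

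Array by array, the mitosis median lay at -0.01, 0.05, -0.11 and 0.00 with BICC1_1, at 0.05, 0.07, -0.04 and -0.05 with BICC1_2 and at -0.06, -0.10, 0.01 and -0.01 on the arrays labelled BICC1_3, against 0.07, 0.08, 0.05 and 0.07 with SC. BICC1_1 replicate 2 and BICC1_2 replicates 1 and 2 reached the SC range, while all 4 arrays labelled BICC1_3 lay below it. These medians were not tested. The number of the 38 genes below their own mean ran between 14 and 22 with BICC1_1, between 13 and 29 with BICC1_2 and between 16 and 30 on the arrays labelled BICC1_3, against 9 to 15 with SC. The counts were highest on BICC1_2 replicate 4 (29 genes) and on replicate 2 of the arrays labelled BICC1_3 (30 genes), and neither is among the 3 arrays that stood apart. The SC arrays lay close together, with a median over all 38 genes of 0.04 to 0.05.

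Among the mitosis genes Aurka, the Aurora A kinase that matures centrosomes and builds the spindle, had the smallest p. It measured 10.43, 10.48, 10.35 and 10.45 with BICC1_1, 10.46, 10.41, 10.22 and 10.33 with BICC1_2 and 10.61, 10.46, 10.47 and 10.68 on the arrays labelled BICC1_3, against 10.50, 10.55, 10.67 and 10.57 with SC. All 4 arrays of BICC1_1 and all 4 of BICC1_2 lay below every SC array, while the arrays labelled BICC1_3 overlapped SC. Of all genes 2.67% in the BICC1_1 comparison and 2.73% in the BICC1_2 comparison lay wholly below SC in this way. The difference was -0.15 (SE 0.07, adjusted p = 0.825) with BICC1_1, -0.22 (SE 0.07, unadjusted p = 0.00843, adjusted p = 0.659) with BICC1_2 and -0.02 (SE 0.07, adjusted p = 0.942) on the arrays labelled BICC1_3 by limma. These Aurka differences lie low in the 2 groups in which Bicc1 fell, and the gene missed the threshold in each. Both comparisons share the SC arrays, Aurka was picked for its p in these data, and a link to Bicc1 was not tested. Directly between siRNAs, BICC1_2 lay -0.20 from the arrays labelled BICC1_3 (adjusted p = 0.473).

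Bub1b encodes BubR1, a kinase-like protein of the spindle checkpoint. It measured 7.85, 7.73, 7.75 and 7.46 with BICC1_1, 7.58, 7.74, 7.61 and 7.74 with BICC1_2 and 7.59, 7.18, 7.71 and 7.67 on the arrays labelled BICC1_3, against 7.75, 7.82, 7.72 and 7.90 with SC. Only the arrays labelled BICC1_3 lay wholly below SC, with replicate 2 lowest (difference -0.26, SE 0.11, adjusted p = 0.502). With BICC1_1 and BICC1_2 the differences were -0.10 and -0.13. Ube2c, the ubiquitin-conjugating enzyme of the anaphase-promoting complex, is dim here. It measured 5.38, 5.48, 5.59 and 5.61 with BICC1_1, 5.29, 5.93, 6.12 and 5.85 with BICC1_2 and 5.38, 5.81, 5.61 and 5.69 on the arrays labelled BICC1_3, against 5.83, 5.58, 5.98 and 6.07 with SC. Every group overlapped SC, and the BICC1_2 arrays spread most. The Ube2c difference was -0.35 (SE 0.15, adjusted p = 0.725) with BICC1_1, -0.07 with BICC1_2 and -0.24 on the arrays labelled BICC1_3.

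Cdca3, a trigger of entry into mitosis, measured 10.77, 10.92, 10.78 and 10.85 with BICC1_1, 10.92, 10.93, 10.90 and 10.76 with BICC1_2 and 10.36, 10.71, 10.83 and 10.81 on the arrays labelled BICC1_3, against 10.89, 10.87, 10.95 and 10.89 with SC. The arrays labelled BICC1_3 lay wholly below SC (difference -0.22, adjusted p = 0.492), and 3.53% of all genes did so. Replicate 1, which stood apart, was the lowest of them, and without the 3 such arrays the difference was -0.12. Cdc20, the activator of the anaphase-promoting complex, also lay wholly below SC there, by -0.07. In all, 4 of the 38 genes did so on the arrays labelled BICC1_3 (Tyms, Cdc20, Cdca3 and Bub1b) and 0 lay wholly above, where 3.06% of all genes did. With BICC1_1 it was 2 below (Aurka and Tyms) and 0 above, where 3.68% of all genes lay wholly above. Over all 12 siRNA arrays 0 members lay wholly above SC and 0 wholly below, where 0.272% and 0.0837% of all genes did. Nusap1, a microtubule-bundling protein of the spindle, lay wholly above SC with BICC1_2 by 0.11 (adjusted p = 1), as did 3.87% of all genes.

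Top2a, Cdk1 and Plk1 are standard proliferation markers. Top2a, the topoisomerase that untangles sister chromosomes, measured 10.24, 10.20, 10.63 and 10.16 with BICC1_1, 10.22, 10.28, 10.43 and 10.36 with BICC1_2 and 10.79, 10.00, 10.22 and 10.16 on the arrays labelled BICC1_3, against 10.24, 10.38, 10.24 and 10.38 with SC. Its mean difference over the siRNAs was 0.00 (95% interval -0.24 to 0.24), and the highest array of each siRNA was one that stood apart. Without those 3 arrays the Top2a difference was -0.11. Cdk1, the kinase that starts mitosis, measured 10.83, 10.71, 11.18 and 10.87 with BICC1_1, 10.63, 10.82, 10.85 and 10.95 with BICC1_2 and 11.35, 10.70, 10.88 and 11.08 on the arrays labelled BICC1_3, against 10.82, 11.09, 10.99 and 11.10 with SC. The Cdk1 groups overlapped, with a mean difference of -0.09 (interval -0.32 to 0.13, adjusted p = 0.878), which was -0.17 without the 3 arrays that stood apart. Plk1, the Polo kinase of mitotic entry, measured 10.66, 10.70, 10.31 and 10.66 with BICC1_1, 10.76, 10.71, 10.42 and 10.60 with BICC1_2 and 10.56, 10.41, 10.71 and 10.43 on the arrays labelled BICC1_3, against 10.75, 10.71, 10.70 and 10.63 with SC. Plk1 overlapped SC in every group (mean difference -0.12, interval -0.29 to 0.05, adjusted p = 0.834).

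By the brightest probe of each, the other mitosis genes gave mean differences over the siRNAs between -0.18 and 0.06. Tpx2, the spindle factor that activates Aurora A, lay lowest (-0.18, interval -0.40 to 0.05), followed by Cdca8, a subunit of the chromosomal passenger complex (-0.12), and the chromatin protein Hmgb2 (-0.11). The mitotic kinesins Kif22 and Kif23 each lay at -0.09 and the spindle midzone protein Prc1 at -0.06. The centromere histone Cenpa lay at -0.01 and the spindle kinesin Kif11 at 0.06. Cdc25c, a phosphatase that activates Cdk1, lay at -0.08, and Stmn1, a microtubule destabilizer, at -0.09 with the widest interval of the mitosis genes (-0.46 to 0.27). Birc5, the survivin of the passenger complex, lay at -0.07 by its brightest probe. Its other kept probes gave -0.30 and -0.24, lower than Tpx2.

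**Figure D3:**
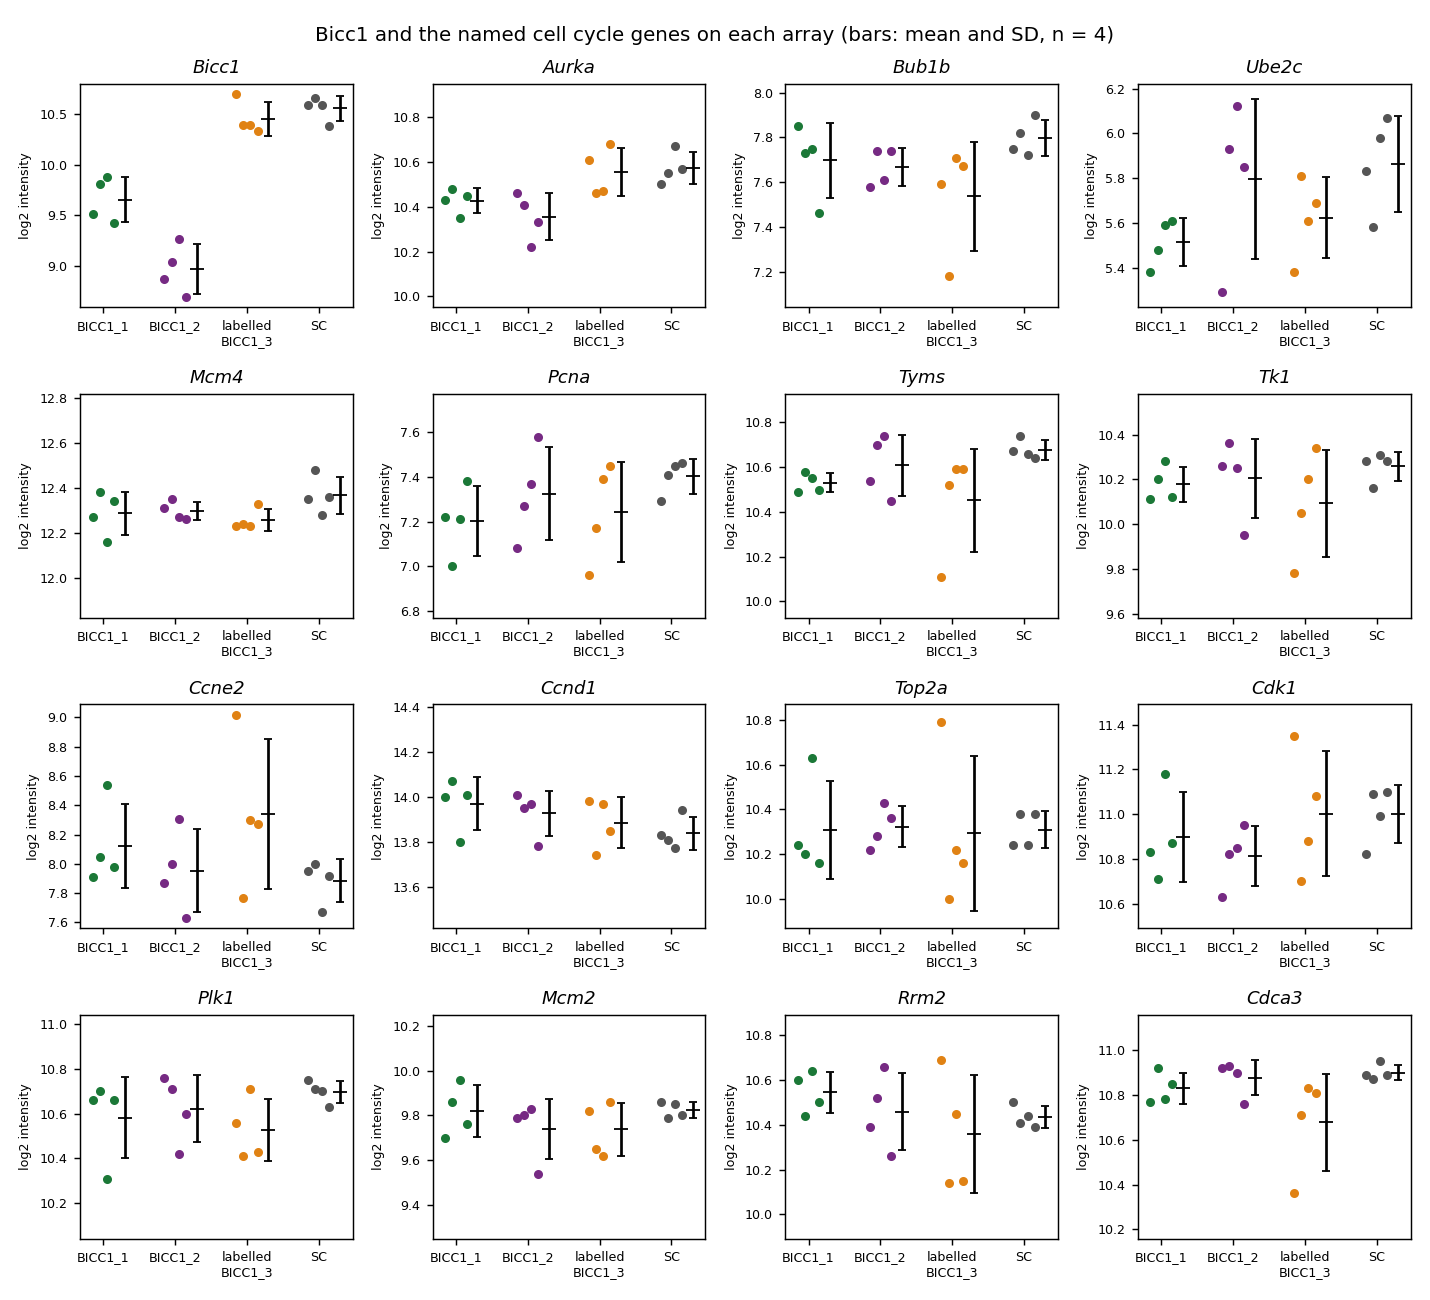
Log2 intensity (vertical axes, each spanning at least 1 log2 unit but at its own level) of Bicc1 and 15 cell cycle genes on every array, with the mean and SD of each group as bars (n = 4). Bicc1 lies low with BICC1_1 and BICC1_2, Aurka lies below SC in the same groups by 0.15 and 0.22, Tyms lies wholly below SC with BICC1_1 and on the arrays labelled BICC1_3, Bub1b and Cdca3 do so on the arrays labelled BICC1_3, and the other cell cycle genes overlap SC in every group.

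Replication genes showed no called difference either. Mcm4, a subunit of the helicase, measured 12.27, 12.38, 12.16 and 12.34 with BICC1_1, 12.31, 12.35, 12.27 and 12.26 with BICC1_2 and 12.23, 12.24, 12.23 and 12.33 on the arrays labelled BICC1_3, against 12.35, 12.48, 12.28 and 12.36 with SC. It overlapped SC in every group and had a small spread (pooled SD 0.07), with differences of -0.08, -0.07 and -0.11. Mcm2, of the same ring, measured 9.70, 9.86, 9.96 and 9.76 with BICC1_1, 9.79, 9.80, 9.83 and 9.54 with BICC1_2 and 9.82, 9.65, 9.62 and 9.86 on the arrays labelled BICC1_3, against 9.86, 9.79, 9.85 and 9.80 with SC. Mcm2 also overlapped in every group (mean difference -0.06, interval -0.20 to 0.09). The clamp gene Pcna measured 7.22, 7.0, 7.21 and 7.38 with BICC1_1, 7.08, 7.27, 7.37 and 7.58 with BICC1_2 and 6.96, 7.17, 7.39 and 7.45 on the arrays labelled BICC1_3, against 7.29, 7.41, 7.45 and 7.46 with SC. Its mean difference was -0.15 (interval -0.35 to 0.06, adjusted p = 0.833), and each siRNA had at least 1 array inside the SC range.

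Neither subunit of ribonucleotide reductase was called. Rrm2, the subunit whose level limits the enzyme in S phase, measured 10.60, 10.44, 10.64 and 10.50 with BICC1_1, 10.39, 10.52, 10.66 and 10.26 with BICC1_2 and 10.69, 10.14, 10.45 and 10.15 on the arrays labelled BICC1_3, against 10.50, 10.41, 10.44 and 10.39 with SC. The BICC1_2 arrays and those labelled BICC1_3 spread to both sides of the narrow SC range, and the BICC1_1 arrays lay in or above it. The mean difference was 0.02 (interval -0.18 to 0.22), and -0.05 without the 3 arrays that stood apart. Rrm1, the large subunit, lay at -0.11 (interval -0.27 to 0.05). Of the other helicase subunits Mcm3 lay at -0.16, Mcm5 at -0.07, Mcm7 at 0.00 and Mcm6 at 0.04 for the mean of the siRNAs. Between siRNAs Mcm7 lay at -0.45 for BICC1_2 against the arrays labelled BICC1_3 (adjusted p = 0.505) with all arrays, and at -0.21 without the 3 that stood apart.

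Of the other S phase genes, Tyms, the thymidylate synthase, measured 10.49, 10.58, 10.55 and 10.50 with BICC1_1, 10.54, 10.70, 10.74 and 10.45 with BICC1_2 and 10.11, 10.52, 10.59 and 10.59 on the arrays labelled BICC1_3, against 10.67, 10.74, 10.66 and 10.64 with SC. The BICC1_1 arrays and the arrays labelled BICC1_3 lay wholly below SC and the BICC1_2 arrays overlapped it. Differences were -0.15 (SE 0.10, adjusted p = 0.915), -0.07 (adjusted p = 1) and -0.22 (SE 0.10, adjusted p = 0.52) for BICC1_1, BICC1_2 and the arrays labelled BICC1_3. Replicate 1 of the last group measured 10.11, and without the 3 arrays that stood apart its difference was -0.11. Tk1, the thymidine kinase of the salvage pathway, measured 10.11, 10.20, 10.28 and 10.12 with BICC1_1, 10.26, 10.36, 10.25 and 9.95 with BICC1_2 and 9.78, 10.05, 10.20 and 10.34 on the arrays labelled BICC1_3, against 10.28, 10.16, 10.31 and 10.28 with SC. Tk1 overlapped SC in every group (mean difference -0.10, adjusted p = 0.857). The licensing factor Cdc6 lay at -0.01.

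Most G1 genes lay above 0, and none was called. Ccne2 encodes cyclin E2, which drives entry into S phase. It measured 7.91, 8.05, 8.54 and 7.98 with BICC1_1, 7.87, 8.0, 8.31 and 7.63 with BICC1_2 and 9.02, 7.77, 8.30 and 8.27 on the arrays labelled BICC1_3, against 7.95, 8.0, 7.67 and 7.92 with SC. The highest array of each siRNA was one that stood apart, and all groups overlapped SC. The difference was 0.24, 0.07 and 0.46 (SE 0.21 each, adjusted p = 0.954, 1 and 0.539). Without the 3 arrays it was 0.10, -0.05 and 0.23. Ccnd1, the cyclin D1 that answers growth signals, measured 14.00, 14.07, 13.80 and 14.01 with BICC1_1, 14.01, 13.95, 13.97 and 13.78 with BICC1_2 and 13.98, 13.74, 13.97 and 13.85 on the arrays labelled BICC1_3, against 13.83, 13.81, 13.77 and 13.94 with SC. Ccnd1 overlapped SC in every group (mean difference 0.09, interval -0.05 to 0.23, adjusted p = 0.853). The factor E2f1 lay at 0.09, Ccnd2 (cyclin D2) at 0.07, and Ccne1 (cyclin E1) and the kinase Cdk2 each at 0.03.

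Several genes were read by more than 1 kept probe. The 3 Birc5 probes gave mean differences of -0.07, -0.30 and -0.24, so the probe used here gave the smallest of them. On the arrays labelled BICC1_3 they gave -0.14, -0.40 and -0.36, in the same order. For Cdc20 the probe used gave -0.08 and the others -0.03, -0.18 and -0.07. For Ccnd1 the probe used gave 0.09 and the others 0.21 and 0.07, and for Cdk2 0.03 stood beside 0.01, -0.03 and -0.05. In the same order the Cdk2 probes gave -0.04, -0.08, -0.18 and -0.37 with BICC1_2. They gave 0.07, 0.11, 0.02 and 0.10 with BICC1_1, and 0.04, 0.00, 0.07 and 0.11 on the arrays labelled BICC1_3. Further Tyms probes gave -0.17, 0.11 and 0.08 beside -0.15, of which the last were detected on 12 and 11 arrays, and the further probes of Rrm2 and Cdca3 each gave 0.02, beside 0.02 and -0.11. Averaging the kept probes of each gene left 0 members called.

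The 3 arrays that stood apart held the cell cycle genes at both extremes. On replicate 1 of the arrays labelled BICC1_3, 10 of the 38 genes lay above all 13 other arrays and 9 below all of them, which is 50%, against 56.0% of all genes. On BICC1_1 replicate 3 it was 11 above and 11 below (57.9%, against 44.5% of all genes), and on BICC1_2 replicate 3 it was 7 above and 8 below (39.5%, against 28.6%). Ccne2, Ccnd2, Top2a and Rrm2 lay above the other 13 on all 3 arrays, and Tpx2 lay below them on all 3. Replicate 1 of the arrays labelled BICC1_3 had Ccne2 1.08, Mcm3 0.67 and Top2a 0.55 above the mean of the 13, and Stmn1 -0.86, Birc5 -0.50 and Cdca3 -0.49 from it. Mcm7 lay at opposite ends, at 0.55 on that array and at -0.40 and -0.63 on BICC1_1 replicate 3 and BICC1_2 replicate 3.

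**Figure D4:**
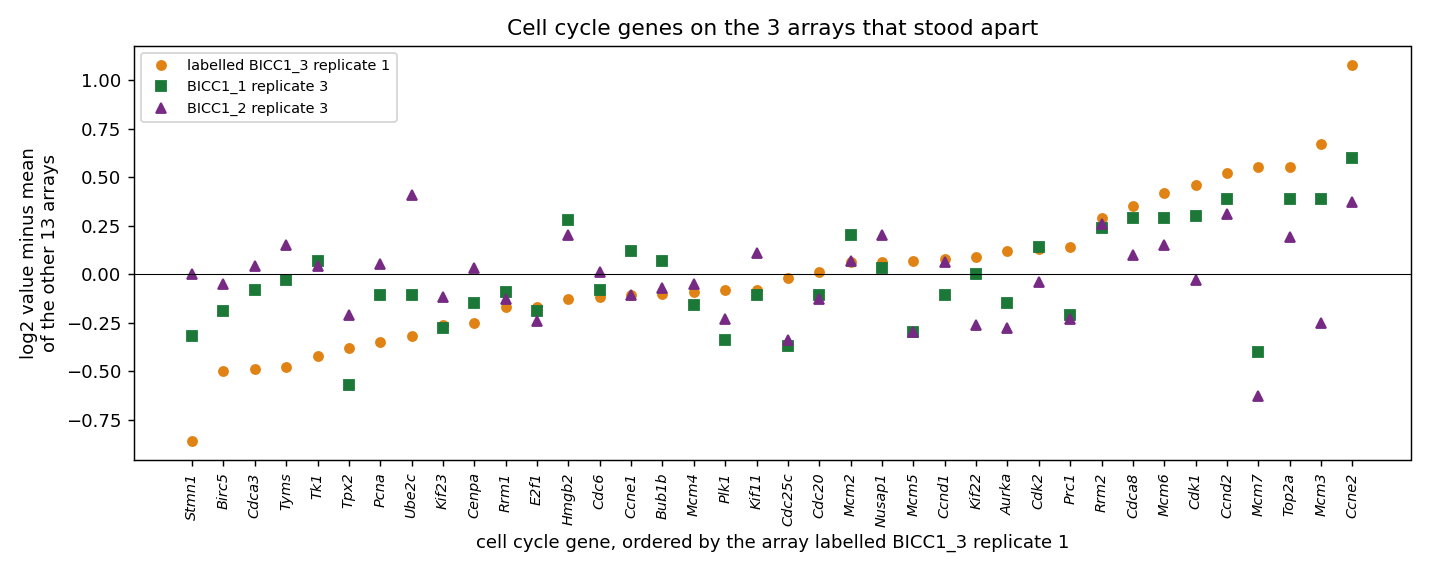
Log2 value minus the mean of the other 13 arrays (vertical axis) for each of the 38 cell cycle genes (horizontal axis) on the 3 arrays that stood apart. Ccne2, Ccnd2, Top2a and Rrm2 lie above 0 on all 3, Tpx2 below 0 on all 3, and Mcm7 at 0.55, -0.40 and -0.63.

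Without these 3 arrays the spread within groups was smaller (median pooled SD of the members 0.12, against 0.15 with all 16 arrays; 0.11 and 0.16 for all genes), and 0 members were called. The smallest adjusted p of a member was 0.219, 0.446 and 0.288 with BICC1_1, BICC1_2 and on the arrays labelled BICC1_3. At an unadjusted p under 0.05 there were then 2 higher and 3 lower members with BICC1_1, where 11% of all genes passed. E2f1 lay at 0.26 and Ccnd1 at 0.19, and Ube2c at -0.38, Cdca8 at -0.20 and Tyms at -0.15. With BICC1_2 there were 0 higher and 2 lower, Cdca8 at -0.19 and Aurka at -0.17 (8.7% of all genes). On the arrays labelled BICC1_3 there were 0 higher and 6 lower (11.6% of all genes), namely Mcm3 at -0.41, Bub1b at -0.27, Top2a and Rrm2 at -0.19 each, and Cdca8 and Plk1 at -0.18 each. The count of genes below 0 was 25, 30 and 26 of 38.

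For the mean of the siRNAs several members moved when these arrays were left out. Among mitosis genes Tpx2 lay at -0.09 without them, against -0.18 with all arrays, Plk1 at -0.07 against -0.12, Stmn1 at 0.00 against -0.09 and Cdca8 at -0.19 against -0.12. Bub1b (-0.17), Ube2c (-0.24), Aurka (-0.11) and Cdca3 (-0.07) stayed within 0.04 of their values with all arrays. Of the replication genes Mcm3 lay at -0.25 against -0.16, Mcm2 at -0.09 against -0.06, Pcna at -0.12 against -0.15 and Mcm4 at -0.06 against -0.08. Tyms lay at -0.13 and Tk1 at -0.08, and of the G1 genes Ccne2 lay at 0.09 against 0.25, E2f1 at 0.15 against 0.09, Ccnd2 at -0.04 against 0.07 and Ccnd1 at 0.09 both ways.

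Between siRNAs 0 of 38 genes were called by limma in any of the 3 pairs, where 0.282% of all genes were called for BICC1_1 against BICC1_2, 0.0732% for BICC1_1 against the arrays labelled BICC1_3 and 0.115% for BICC1_2 against them. With the replicate number as a block the first of these calls covered 6 genes in place of 27, and 0 members in both. At an unadjusted p under 0.05, BICC1_2 against the arrays labelled BICC1_3 held Mcm7 at -0.45, Aurka at -0.20 and Cdca3 at 0.20 (adjusted p = 0.592), where 8.28% of all genes passed. Without the 3 arrays that stood apart these were -0.21, -0.14 and 0.09. The other pairs held 0 members at that threshold, where 6.38% (BICC1_1 against BICC1_2) and 6.09% (BICC1_1 against the arrays labelled BICC1_3) of all genes passed.

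Within groups, after each group's mean was removed, the cell cycle genes varied together little. Over the 703 pairs of the 38 genes the median Pearson correlation across the 16 arrays was 0.04, against 0.00 over all gene pairs. Over the 13 arrays left without those that stood apart it was 0.20, against 0.01. The share of pairs above 0 was 55.5% over 16 arrays, against 50.3% of all gene pairs, and 67.9% over the 13, against 50.7%. These are descriptions over arrays that share a normalization and carry no p.

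Other genes of the same machinery, from lists of related genes, had 0 called by limma in any list and comparison with SC. At an unadjusted p under 0.05 for the mean of the siRNAs, 0 further replication genes passed, 2 further mitosis genes were lower, 1 gene of the anaphase-promoting complex was lower, 1 further G1 gene was higher, and 3 brakes were higher and 1 lower, where 3.83% of all genes were higher and 2.87% lower. Of all genes 50.6% lay below 0 in that comparison. For the mean of the siRNAs 23 of 33 further replication genes lay below 0 (median -0.04), with Cdc7, the kinase that fires origins, at -0.13 and the dUTPase gene Dut at 0.13. Of 43 further mitosis genes 28 lay below 0 (median -0.05), with Ska3, which couples kinetochores to microtubules, at -0.17 and the mitotic kinase gene Melk at -0.26. Of 13 genes of the anaphase-promoting complex 9 lay below 0 (median -0.02), with its subunits Cdc23 at -0.19 and Cdc16 at 0.13. Cdc16 was highest on the 3 arrays that stood apart, at 11.17 to 11.38. The other siRNA arrays measured 10.85 to 11.15 and the SC arrays 10.84 to 11.01. Of 9 further G1 genes 6 lay below 0 (median -0.01), with cyclin D3 (Ccnd3) at 0.12 and E2f3 at -0.13. E2f3 was lowest on the 3 arrays that stood apart, at 8.10 to 8.43. The other siRNA arrays measured 8.56 to 8.81 and the SC arrays 8.66 to 8.71. Of 21 inhibitors and brakes of the cycle 10 lay below 0 (median 0.02), with the kinase inhibitor Cdkn1c at 0.33 (adjusted p = 0.173) and the stress gene Gadd45b at -0.19 (adjusted p = 0.546).

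Some marker genes of other cell types were detected. Of 10 macrophage markers 6 were tested, of 10 skeletal muscle markers 4, of 8 endothelial markers 3, of 8 chondrocyte markers 4, of 8 adipocyte markers 3 and of 8 osteoclast markers 5. The macrophage markers Adgre1, Cd14, Lyz2, Mrc1, Tyrobp and Fcer1g were detected on 16 of 16 arrays, with Lyz2 at a mean log2 intensity of 11.89. The endothelial markers Esam and Ramp2, the chondrocyte markers Sox9 and Col2a1 and the osteoclast markers Ctsk, Mmp9 and Tnfrsf11a were too. Itgam and Ptprc, Myod1 and Ckm, and Pecam1, Cdh5 and Kdr were detected on 0 of 16 arrays. So were the adipocyte markers Adipoq, Fabp4, Plin1 and Retn, the chondrocyte markers Comp, Matn1 and Matn3, and the osteoclast markers Calcr, Dcstamp and Atp6v0d2. The muscle median, as a deviation from the mean of 16 arrays, was -0.24 to 0.19 with BICC1_1, 0.24 to 0.37 with BICC1_2 and -0.32 to 0.20 on the arrays labelled BICC1_3, against -0.18 to 0.23 with SC. The macrophage median ran between -0.05 and 0.29, -0.11 and 0.01, and -0.36 and 0.13 in the same groups, against -0.15 to 0.05 with SC. The osteoblast median lay at -0.18 to -0.09 with BICC1_1, wholly below SC, at -0.07 to 0.15 with BICC1_2 and at -0.08 to 0.11 on the arrays labelled BICC1_3, against -0.02 to 0.07 with SC. The adipocyte median lay at 0.11 to 0.23 with BICC1_1, wholly above SC (-0.12 to -0.01). It lay at -0.20 to 0.09 with BICC1_2 and at -0.07 to 0.03 on the arrays labelled BICC1_3. This median rests on Pparg, Lpl and Cebpa, and Cebpa was detected on 9 arrays. The BICC1_2 muscle medians also lay wholly above SC, though their lowest (0.24) was next to the highest of SC (0.23). They rest on Acta1, Myog, Des and Myl1, of which only Acta1 was detected on 16 of 16 arrays. Myl1 ran between 4.74 and 9.58 over the arrays. In the same order of groups the endothelial medians ran between -0.06 and 0.19, -0.19 and 0.10, and -0.59 and 0.11. With SC they ran between 0.05 and 0.17. Chondrocyte medians ran between -0.16 and 0.09, -0.07 and 0.31, and -0.13 and 0.00, against 0.00 to 0.17 with SC, and osteoclast medians between -0.14 and 0.06, 0.00 and 0.13, and -0.08 and 0.08, against -0.04 to 0.06 with SC. The endothelial (-0.59), macrophage (-0.36) and muscle (-0.32) lows were all on replicate 1 of the arrays labelled BICC1_3, which stood apart. On the other replicates of that group these medians were -0.19 to 0.11, 0.08 to 0.13 and -0.21 to 0.20. The part of other cell types in the cell cycle values was not tested.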

How the data were processed

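Expression was measured on 16 Illumina bead arrays. The deposited table holds a probe intensity on a linear scale, not normalized between arrays, per the file headers, and the submitters' processing notes name GenomeStudio. Beside it the authors deposited a detection score whose header calls it a p-value. It is high for bright probes, so 1 minus the score was used. The authors' table of log2 values, whose normalization is not given in the sources used here, served as an alternative. Intensities were corrected and quantile-normalized with neqc (limma 3.58.1, R 4.3.3, offset 16). Of 25697 probes, 12802 with a detection p under 0.05 on at least 4 arrays were kept, and the brightest stood for each gene. Probe names came from the platform annotation, with 23962 of 23978 named probes found in a RefSeq gene table. A linear model over the 4 groups (lmFit and eBayes, 12 residual degrees of freedom) gave every difference, Benjamini-Hochberg adjusted over 9560 genes. The fit was tested on simulated data. Precision is limited by the number of arrays, with a median standard error of 0.103 over the 38 genes for 1 siRNA against SC.

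Members and lists were chosen with earlier results of these data known. Values on every array are given for the 3 mitosis genes and the 2 genes of each other role with the smallest p for the mean of the siRNAs, and for Top2a, Cdk1, Plk1, Pcna, Mcm2, Rrm2 and Ccnd1. Further genes are named with an unadjusted p under 0.05 against SC, and of each further list the 2 of smallest p. The remaining members are given by role, and some were chosen after their values were seen. Replicate numbers in the titles were checked for pairing. Same-numbered arrays of BICC1_1 and BICC1_2 correlated at 0.18, 0.26, 0.61 and 0.22 in their deviations from the group means, all positive. The 0.61 is that of replicate 3, which stood apart in both groups. BICC1_1 replicate 1 correlated best with BICC1_2 replicate 2, and BICC1_1 replicate 2 with BICC1_2 replicate 1. In each other pair of groups at least 1 same-numbered correlation was not positive. Alternatives in normalization, filter, probe choice, weights, samples and left-out arrays were run.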

Additional observations from a re-analysis of the deposited data

Results flagged for a closer look

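Among 84 groups of 4 arrays (16 genes, the medians of 4 roles and the median of all members), 7 held an array far from its group mates. The limit is Dixon's 95% critical value, which by its definition chance passes in about 1 group in 20. On replicate 1 of the arrays labelled BICC1_3, Bicc1 measured 10.70 while its group mates measured 10.33 to 10.39, and Tyms measured 10.11 beside 10.52 to 10.59. That array also had the lowest ribosomal protein median (-0.74), and the part of this in either value was not tested. Mcm4 measured 12.33 on replicate 4 of the same group, beside 12.23 to 12.24. Plk1 measured 10.31 on BICC1_1 replicate 3, beside 10.66 to 10.70, and that array also stood apart in ribosomal protein genes. Mcm2 measured 9.54 on BICC1_2 replicate 4, beside 9.79 to 9.83. On the same array the median deviation of the G1 genes was -0.11, beside -0.01 to 0.00. The median of the other S phase genes was -0.02 on SC replicate 2, beside 0.09 to 0.10. Bicc1 itself differed between the siRNAs by the limma test of each difference: by 0.69 log2 for BICC1_1 against BICC1_2 (adjusted p = 0.043), by -0.80 for BICC1_1 against the arrays labelled BICC1_3 (adjusted p = 0.0276) and by -1.49 for BICC1_2 against them (adjusted p = 2.03e-05). No cell cycle gene differed between siRNAs at that threshold.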

How the results depend on the processing

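No cell cycle gene was called by limma in any comparison under any of 26 alternatives, of which 16 left out 1 array, or with the mean of BICC1_1 and BICC1_2 only, which was added after the data were seen. The smallest adjusted p of a member was 0.153, with array weights in the BICC1_1 comparison. The chip as a block was not run, since the headers give no chip. The members' median difference kept its sign and moved beyond the spread between arrays only for BICC1_2 with median scaling (-0.01, against -0.07). Leaving out 1 array gave 24 to 28, 26 to 30, 22 to 28 and 25 to 29 of 38 genes below 0 for BICC1_1, BICC1_2, the arrays labelled BICC1_3 and the mean. Of 404 values of 15 named cell cycle genes for the mean of the siRNAs, 388 kept their direction, 16 reversed and 0 passed the threshold. The reversals were Top2a (0.00, just below 0, in the main fit), at 0.03 with median scaling, at 0.00 with BICC1_1 and BICC1_2 only and -0.06 to 0.03 leaving out 1 array, and Rrm2 (0.02), at -0.02 with array weights, -0.05 without the 3 arrays that stood apart and -0.02 to 0.04 leaving out 1 array. The Top2a value without the 3 arrays was -0.11. Over all alternatives Ube2c (-0.22) ran between -0.32 (without SC replicate 2) and -0.04 (the authors' deposited values), and Tyms (-0.15) between -0.16 and -0.03 (mean of all probes). The causes were not tested.

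The count of all genes called, 2, 5, 1 and 1 against SC (BICC1_1, BICC1_2, arrays labelled BICC1_3, mean) and 27, 7 and 11 between siRNAs (BICC1_1 against BICC1_2, BICC1_1 against the arrays labelled BICC1_3, BICC1_2 against them), moved more. Median scaling gave 0, 2 and 0 against SC and 2, 0 and 2 between siRNAs. The authors' deposited values gave 2 for the arrays labelled BICC1_3 and 17 for BICC1_2 against them. The mean of all probes gave 1 for BICC1_1 and 4 for BICC1_1 against the arrays labelled BICC1_3. Array weights gave 30, 60, 14 and 26 against SC and 71 for BICC1_1 against BICC1_2. Separate fits gave 0 for BICC1_1, 0 for the arrays labelled BICC1_3, and 5, 0 and 2 between siRNAs. With the replicate block, which changed no call of a member, they were 1 for BICC1_1, 4 for the arrays labelled BICC1_3, and 6, 2 and 6 between siRNAs. Without the 3 arrays they were 11 for BICC1_2, 0 for the arrays labelled BICC1_3 and 7 for BICC1_2 against them. With BICC1_1 and BICC1_2 only, the mean gave 3. Leaving out 1 array gave 0 to 5, 2 to 9, 0 to 12 and 0 to 1 against SC and 3 to 43, 1 to 8 and 5 to 19 between siRNAs. Ube2c has no value where detection on all 16 arrays was required. The Bicc1 call with BICC1_1 was lost when arrays were scaled to a common median, when each comparison was fitted alone, and without any 1 of BICC1_1 replicates 1, 2 and 4, BICC1_2 replicates 1 and 2, BICC1_3 replicates 2 and 3 or SC replicates 1, 2 and 3. With 4 arrays a group, the interval of a typical member reached 0.22 log2 to either side. Same-numbered arrays of other pairs of groups correlated at -0.59 to 0.52.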

Other observations

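Of the 21 tested brakes of the cycle, 11 lay above 0 and 10 below for the mean of the siRNAs (median 0.02). Cdkn2a, which encodes p16 and p19Arf, was lowest at -0.26 (limma adjusted p = 0.853), and Gadd45b lay at -0.19 (adjusted p = 0.546). The Cdkn2a low came from arrays that stood apart, at 7.63 (BICC1_3 label, replicate 1) and 8.37 (BICC1_1 replicate 3). Every remaining siRNA array gave a Cdkn2a value of 8.97 to 9.25, beside 9.02 to 9.21 for SC. For the mean of the siRNAs 3 brakes were higher and 1 lower at an unadjusted p under 0.05 (limma). Of all genes 3.83% were higher and 2.87% lower at that p. No brake passed the adjusted threshold. Cdkn1a, Ccng1 and Cdkn2a were chosen after their values were seen. Cdkn1c, which encodes the kinase inhibitor p57, measured 7.25, 7.46, 7.46 and 7.44 with BICC1_1, 7.66, 7.54, 7.47 and 7.49 with BICC1_2 and 7.55, 7.56, 7.43 and 7.45 on the arrays labelled BICC1_3, against 7.21, 7.05, 7.07 and 7.28 with SC. All arrays of BICC1_2 and all those labelled BICC1_3 lay above SC, as did 3.87% and 3.06% of all genes. For Cdkn1c 1 array of BICC1_1 fell inside the SC range. Its differences were 0.25, 0.39 and 0.34 (SE 0.08 each, limma adjusted p = 0.547, 0.0977 and 0.157). Ccng1, the cyclin G1 that p53 turns on, measured 13.75 to 13.90 with BICC1_1, 13.76 to 13.85 with BICC1_2 and 13.71 to 14.00 on the arrays labelled BICC1_3, against 13.64 to 13.70 with SC. All 12 siRNA arrays lay above all SC arrays, as 0.272% of all genes did, with a mean difference of 0.14 (adjusted p = 0.729). Cdkn1a, the inhibitor p21, measured 13.38 to 13.68, 13.47 to 13.55 and 13.54 to 13.70 in the same groups, against 13.32 to 13.47 with SC (mean difference 0.14, adjusted p = 0.729).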
